A study of Mus musculus with 24 samples.

Results

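Interstitial macrophages of the injured mouse lung were compared with those of sham-treated lungs in 6 of the 24 libraries of this bulk RNA sequencing series. Of the 6, 3 came from bleomycin-treated and 3 from PBS-treated wild-type C57BL/6J mice, and these are all the libraries of both groups. Bleomycin cleaves DNA, and in mice it serves as a model of lung injury and fibrosis. It was given into the trachea at 3 µg per g body weight. The other mice received PBS by the same route. Lungs were taken 7 days later, digested, freed of red cells and cleared on a Percoll gradient. Cells in the CD11b+ SiglecF- gate were sorted, called interstitial macrophages (IMs) here. Ages are not given in the sources used here, and no label says that the 3 libraries of a group are separate mice, so every p-value measures the spread between these libraries, which may be technical. A CD11b+ SiglecF- gate selects macrophages only by these 2 surface proteins. Monocytes, neutrophils, NK cells and some dendritic cells carry CD11b too and can pass it.

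Interstitial macrophages lie in the lung tissue between airspace and vessels, whereas alveolar macrophages lie in the airspace. After injury, blood monocytes enter the tissue and mature into macrophages that clear dead cells, digest lipid and protein in lysosomes, and make factors that act on epithelium and fibroblasts. In fibrotic lung, macrophages rich in osteopontin (Spp1), Gpnmb and Trem2, often called lipid-associated or scar-associated macrophages, are a well known state.

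Each library held 16120806 to 17848593 counts after bleomycin and 15148420 to 16362415 after PBS. Within a group the libraries were close to each other. Levels are in CPM, a gene's counts scaled to a common library total. Pearson's r of log2 CPM was 0.9906 to 0.9917 between bleomycin libraries, 0.9861 to 0.9902 between PBS libraries and 0.904 to 0.9136 across groups, over genes, which are not independent replicates. Among genes at 20 CPM or more, the median coefficient of variation was 4.30% within the bleomycin group and 5.39% within the PBS group. The CPM below are scaled by the normalization factors of the fit, as each library's value or as mean ± SD with n = 3 libraries per group. Fold changes are bleomycin over PBS, and a gene was called higher ("rose") or lower ("fell") at an adjusted p under 0.05 in edgeR's quasi-likelihood test.

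The genes of the gate were present in both groups. Itgam, which encodes CD11b, stood at 265, 247 and 258 CPM in the bleomycin libraries, against 209, 222 and 234 CPM in the PBS libraries, a call of small size (log2 fold change 0.21 ± 0.053 SE, adjusted p = 0.00121). A second gene of the annotation that shares this symbol held few counts and was not tested. Siglecf, which encodes SiglecF, stood at 12.8, 11.9 and 12.3 CPM in the bleomycin libraries, against 8.42, 12.3 and 12.5 CPM in the PBS libraries. The groups overlapped for Siglecf, and it was not past the test (log2 fold change 0.15 ± 0.139 SE, adjusted p = 0.333).

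Of 15645 genes tested, 10957 (70.0%) were called, 5567 (35.6%) higher and 5390 (34.5%) lower after bleomycin. At least 2-fold higher were 1653 genes (10.6%), and at least 2-fold lower were 2410 (15.4%). The median log2 fold change was 0.004, with 5% of genes below -2.38 and 5% above 1.43. At least 8-fold higher were 71 genes and at least 8-fold lower were 498. The groups did not overlap for 11434 genes (73.1%). Against this background a call or a lack of overlap alone says little about a gene, so the sizes of the changes are given beside the counts. Every count of list members below is to be read against these shares of all tested genes, 35.6% higher and 34.5% lower.

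**Figure D1:**
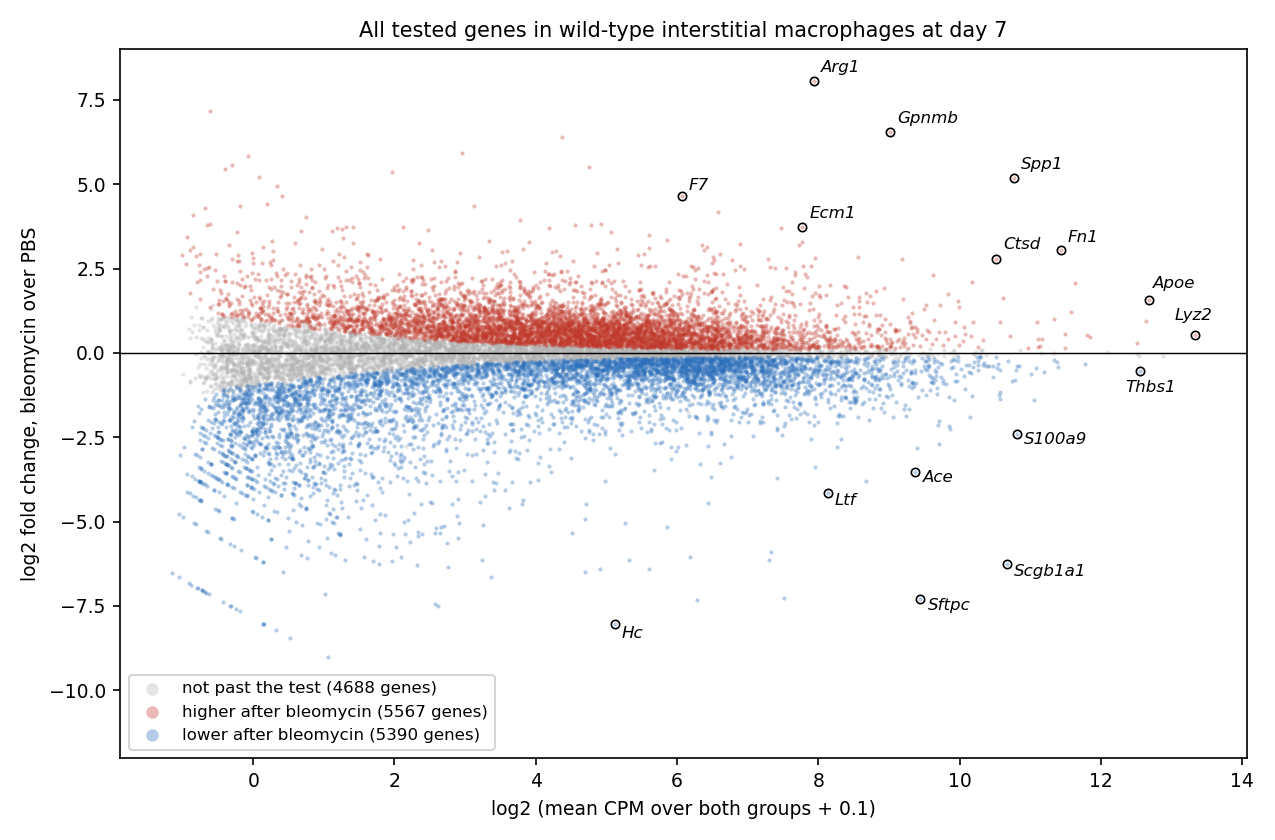
Each point is a tested gene, with its mean level over both groups on the x axis (log2 of CPM + 0.1) and its log2 fold change, bleomycin over PBS, on the y axis. Red genes were called higher (5567), blue genes lower (5390), and grey genes were not past the test. Of the circled and named genes Arg1, Gpnmb and Spp1 lie highest, and Hc, Sftpc and Scgb1a1 lie lowest.

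The genes that fell at least 8-fold had a median of 0.174 CPM after bleomycin and 2.90 CPM after PBS. They took 0.0544% to 0.0677% of the counts of a bleomycin library and 1.19% to 1.47% of a PBS library. The genes that rose at least 2-fold took 12.9% to 13.5% of the counts of a bleomycin library and 3.92% to 4.38% of a PBS library. The order of the most abundant messages changed with them. Per kilobase of exon, Lyz2 (lysozyme) was the most abundant protein-coding nuclear gene after bleomycin, at 9319 CPM per kb against 6422 CPM per kb after PBS. Spp1 ranked 10 after bleomycin, at 2057 CPM per kb, and 837 after PBS, at 56.4 CPM per kb. Scgb1a1, the secretory protein of airway club cells, ranked 521 after bleomycin and 1 after PBS, at 87.7 against 6748 CPM per kb.

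Messages of other lung cells were therefore measured in the sorted samples, in amounts that differed between the groups. The 9 markers of alveolar type 2 epithelium summed to 337 to 357 CPM after bleomycin and 2676 to 3014 CPM after PBS. Most of the sum after bleomycin was Napsa and Abca3, at 214 and 93.4 CPM, which fell only 1.42-fold and 1.32-fold. All 9 fell, against 34.5% of all tested genes, and Sftpc, surfactant protein C, stood at 7.78, 10.1 and 8.82 CPM in the bleomycin libraries, against 1499, 1278 and 1379 CPM in the PBS libraries. Scgb1a1 stood at 34.7, 41.3 and 49.4 CPM in the bleomycin libraries, against 4174, 2440 and 3023 CPM in the PBS libraries. The PBS libraries also differed among themselves here, since PBS library 1 held the most Scgb1a1, Cyp2f2 and Scgb3a2. Of 13 airway and type 1 epithelial markers, 10 fell and 3 rose, namely Cdh1 (E-cadherin), Hopx and Epcam. The 15 neutrophil markers summed to 1680 to 1706 CPM after bleomycin and 7858 to 9418 CPM after PBS, and 14 fell. S100a9, a calcium-binding protein of neutrophils and monocytes, stood at 591, 559.9 and 552 CPM in the bleomycin libraries, against 2726, 2816 and 3519 CPM in the PBS libraries. Ltf, lactoferrin of neutrophil granules, stood at 27.9, 28.0 and 34.1 CPM in the bleomycin libraries, against 502, 533 and 562 CPM in the PBS libraries. Both genes separated the groups without overlap, as did 73.1% of all tested genes. The 10 B and plasma cell markers all fell (in sum 230.8 to 274 CPM after bleomycin and 838 to 957 CPM after PBS), as did all 12 fibroblast and mural markers (in sum 53.3 to 58.0 CPM after bleomycin and 242 to 306 CPM after PBS).

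The remaining lists varied in size and direction. NK cell markers summed to 138 to 144 CPM after bleomycin and 103 to 111 CPM after PBS, with 9 of 10 higher and 1 lower. Of 11 T cell markers 3 rose and 2 fell, and of 11 dendritic cell markers 3 rose and 4 fell. Of 12 endothelial markers tested 2 rose and 8 fell. Of 7 mast cell and basophil markers 1 rose and 6 fell, and of 7 platelet and red cell markers none rose and 6 fell. The median log2 fold changes of these lists were -1.616, -3.687 and -1.632, against -2.245 for the neutrophil markers. Of 4 eosinophil markers tested 1 rose and 2 fell. Of 14 alveolar macrophage markers tested 4 rose and 8 fell. The sum of that list was 2101 to 2437 CPM after bleomycin and 771.5 to 812.5 CPM after PBS, most of it Chil3, a chitinase-like protein that monocytes make too. Of 15 genes of the stress that tissue dissociation brings, 8 rose and 6 fell, led by the heat shock genes Hspa1a (1.84 log2) and Hspa1b (1.75 log2). Of 12 mitochondrially encoded transcripts tested, 7 fell and none rose. Of 4 sex-linked genes tested, Ddx3y and Eif2s3y fell and none rose, and Xist was near 0 in every library. The fall of Eif2s3y was not past the test when all libraries of the table were fitted together (adjusted p = 0.106). In bulk samples, fewer cells of a type and less RNA per cell cannot be told apart, and the part that these other cells play in the results below was not tested.

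**Figure D2:**
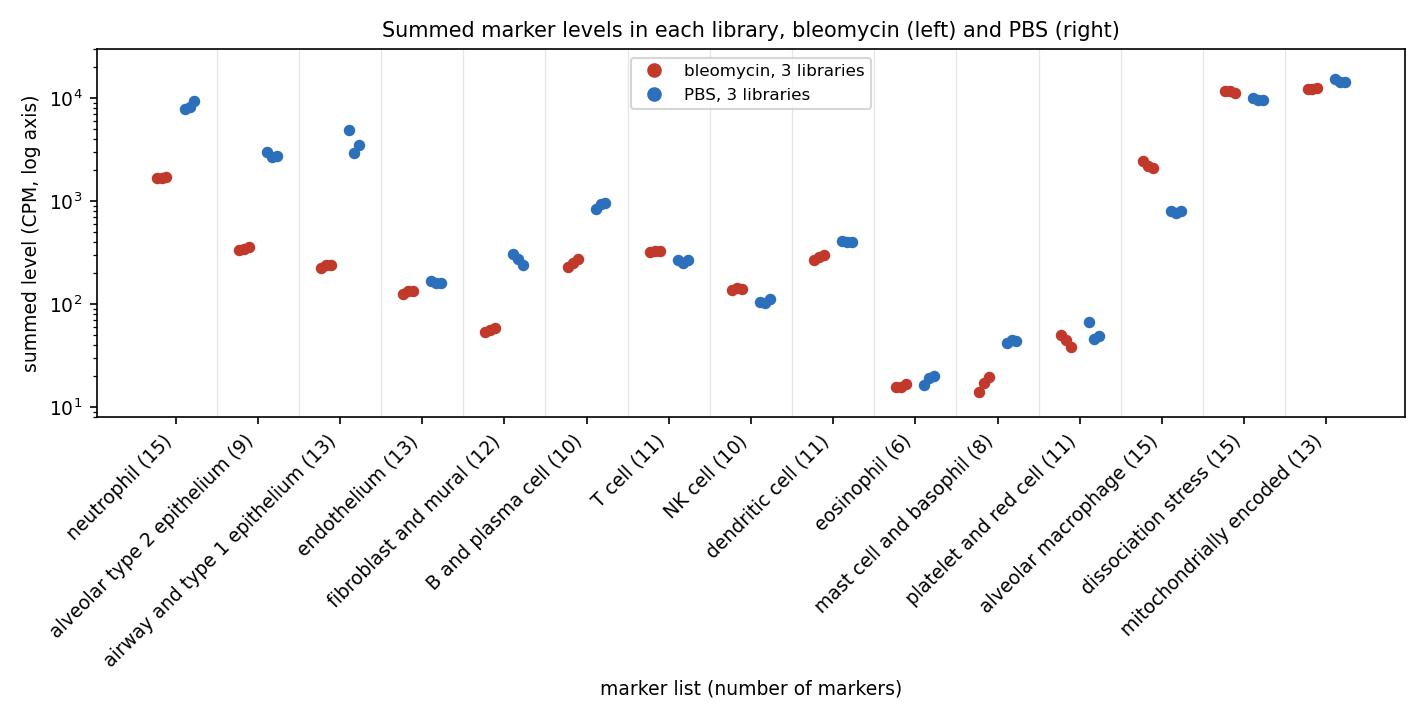
Summed level (CPM, log axis) of each list of markers in each library, with the 3 bleomycin libraries on the left of each pair in red and the 3 PBS libraries on the right in blue. The numbers of markers stand in brackets. The neutrophil, epithelial, fibroblast and B cell sums are lower in all 3 bleomycin libraries, whereas the alveolar macrophage sum, mostly Chil3, is higher.

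Genes that define macrophages rose as a rule. Of 14 identity genes 12 rose and 2 fell, against 35.6% and 34.5% of all tested genes, with a median log2 fold change of 1.06 against 0.004 over all. Mertk, a receptor for dying cells that marks tissue macrophages, averaged 148 ± 3.61 CPM after bleomycin and 17.8 ± 5.37 CPM after PBS (log2 fold change 3.06 ± 0.185 SE, adjusted p = 2.2e-05). Fcgr1, the high-affinity IgG receptor CD64 that macrophages gain as they mature from monocytes, stood at 226, 204 and 199 CPM in the bleomycin libraries, against 40.8, 37.5 and 34.0 CPM in the PBS libraries (log2 fold change 2.49 ± 0.069 SE, adjusted p = 1.8e-18). All bleomycin libraries lay above all PBS libraries for both, and 73.1% of all tested genes separated the groups in either direction. The complement subunit genes C1qa, C1qb and C1qc rose 2.69-fold, 3.36-fold and 3.03-fold (adjusted p = 0.00119 to 0.00295). Of the PBS libraries, library 1 held the most of each, for C1qa 579 CPM against 382 and 412 CPM in the others. The lysosomal membrane genes Cd68 and Cd63 rose 2.17-fold and 3.81-fold. The general genes moved little, with Adgre1 (F4/80) 1.23-fold and Cd14 1.13-fold higher. The call of Adgre1 was lost with upper-quartile factors, without PBS library 2 or without bleomycin library 1 (adjusted p = 0.0809 to 0.111), and that of Cd14 with upper-quartile factors (adjusted p = 0.0588). The 2 that fell were Csf1r, the receptor for the macrophage growth factor M-CSF (1133 ± 10.2 CPM after bleomycin and 1442 ± 80.3 CPM after PBS), and Spi1, which encodes the lineage factor PU.1 (376 ± 2.73 CPM after bleomycin and 548 ± 28.3 CPM after PBS).

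Among 38 macrophage transcription factors 16 rose and 14 fell, with a median log2 fold change of -0.04 that ran from -0.114 to 0.015 over the alternatives. Tfec, a member of the MITF/TFE family of lysosome and osteoclast factors, stood at 52.99, 53.2 and 46.7 CPM in the bleomycin libraries, against 4.14, 3.62 and 3.36 CPM in the PBS libraries (log2 fold change 3.78 ± 0.112 SE, adjusted p = 1.7e-18). Mitf of the same family rose 2.60-fold, while Tfeb and Tfe3 were not past the test (53.4 CPM after bleomycin, 55.5 CPM after PBS, and 93.2 CPM after bleomycin, 98.7 CPM after PBS), though Tfe3 was lower with upper-quartile factors (adjusted p = 0.0149). Tfec was the member of the family with the widest gap between the groups. Egr2, a factor of alveolar and monocyte-derived lung macrophages, averaged 159 ± 6.27 CPM after bleomycin and 23.7 ± 4.32 CPM after PBS (log2 fold change 2.75 ± 0.092 SE, adjusted p = 2.9e-13). Cebpa rose 4.04-fold, and Cebpb fell 1.43-fold. Of the factors tied to resident macrophages, Maf rose 1.49-fold, Bhlhe41 rose 2.08-fold, and Pparg, the factor of alveolar macrophages, fell 2.82-fold. Epas1, a hypoxia-inducible factor, fell 4.29-fold, and Hif1a was not past the test (311 CPM after bleomycin, 329.7 CPM after PBS) but was lower with upper-quartile factors (adjusted p = 0.00572). Klf2, a factor of quiescent monocytes and endothelium, fell 2.31-fold, and Irf4, a factor of IL-4 responses, fell 2.01-fold.

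Among 14 tested genes of nonclassical, patrolling monocytes 13 fell and 1 rose, with a median log2 fold change of -2.08. Ace, angiotensin-converting enzyme, averaged 106 ± 15.6 CPM after bleomycin and 1221 ± 102 CPM after PBS (log2 fold change -3.52 ± 0.119 SE, adjusted p = 5.2e-08). Adgre4, an adhesion receptor of these monocytes, stood at 41.2, 43.4 and 46.8 CPM in the bleomycin libraries, against 424, 477 and 457 CPM in the PBS libraries (log2 fold change -3.37 ± 0.063 SE, adjusted p = 6.5e-22). Itgal, the integrin LFA-1 subunit with which they crawl on vessel walls, stood at 309, 338 and 349.8 CPM in the bleomycin libraries, against 1258, 1456 and 1319 CPM in the PBS libraries. The groups were far apart for each of the 3. Spn (CD43) fell 4.44-fold, and the exception was the fractalkine receptor Cx3cr1, which rose 1.12-fold. That call was lost with upper-quartile factors, in the fit of all libraries and without PBS library 3 (adjusted p = 0.118 to 0.385). Some genes of this list are not particular to these monocytes. Pparg, which fell, is also a listed alveolar macrophage marker, and Cd36 and Fabp4 are also among the lipid-associated genes below. Of 13 classical, inflammatory monocyte genes 6 rose and 6 fell. Ccr2, the receptor that draws them out of marrow and blood, stood at 648, 646 and 646 CPM in the bleomycin libraries, against 212, 206 and 183 CPM in the PBS libraries (log2 fold change 1.69 ± 0.055 SE, adjusted p = 1.1e-17). Ly6c2 rose 1.61-fold, Vcan (versican) 2.90-fold and Chil3 4.30-fold. Those that fell included Cd177 (3.96-fold), Plac8 (4.24-fold), Hp (2.61-fold), Gsr (2.79-fold) and Mgst1 (1.17-fold, adjusted p = 0.072 in the fit of all libraries). Cd177 and Hp are neutrophil genes as well, and the neutrophil sum fell in the same libraries.

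Of 20 genes of resident IMs 11 rose and 5 fell, with a median of 0.48. The 6 genes of the CX3CR1+ interstitial type all rose, from 0.159 to 2.587 log2. The smallest rise was that of Cx3cr1, whose call was lost in the alternatives given above. Tmem119 of the same 6, also a microglia marker, rose 4.26-fold. Of the 6 genes of the perivascular LYVE1+ type, 2 rose and 3 fell. Timd4, a phosphatidylserine receptor of long-lived resident macrophages, stood at 0.723, 1.05 and 1.09 CPM in the bleomycin libraries, against 15.4, 12.3 and 12.7 CPM in the PBS libraries (log2 fold change -3.80 ± 0.205 SE, adjusted p = 9.3e-14). Lyve1, a hyaluronan receptor, fell 6.15-fold at a low level (0.971 CPM after bleomycin, 6.04 CPM after PBS), and the haemoglobin receptor gene Cd163 fell 5.18-fold. Stab1 and the mannose receptor gene Mrc1 rose 2.22-fold and 2.001-fold, and Folr2 was not past the test (10.2 CPM after bleomycin, 12.5 CPM after PBS). Without PBS library 2 the call of Mrc1 was lost (adjusted p = 0.0527). The secreted-type gene Igf1 rose 2.03-fold, whereas Cbr2, a carbonyl reductase that club cells make as well, fell 13.1-fold.

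**Figure D3:**
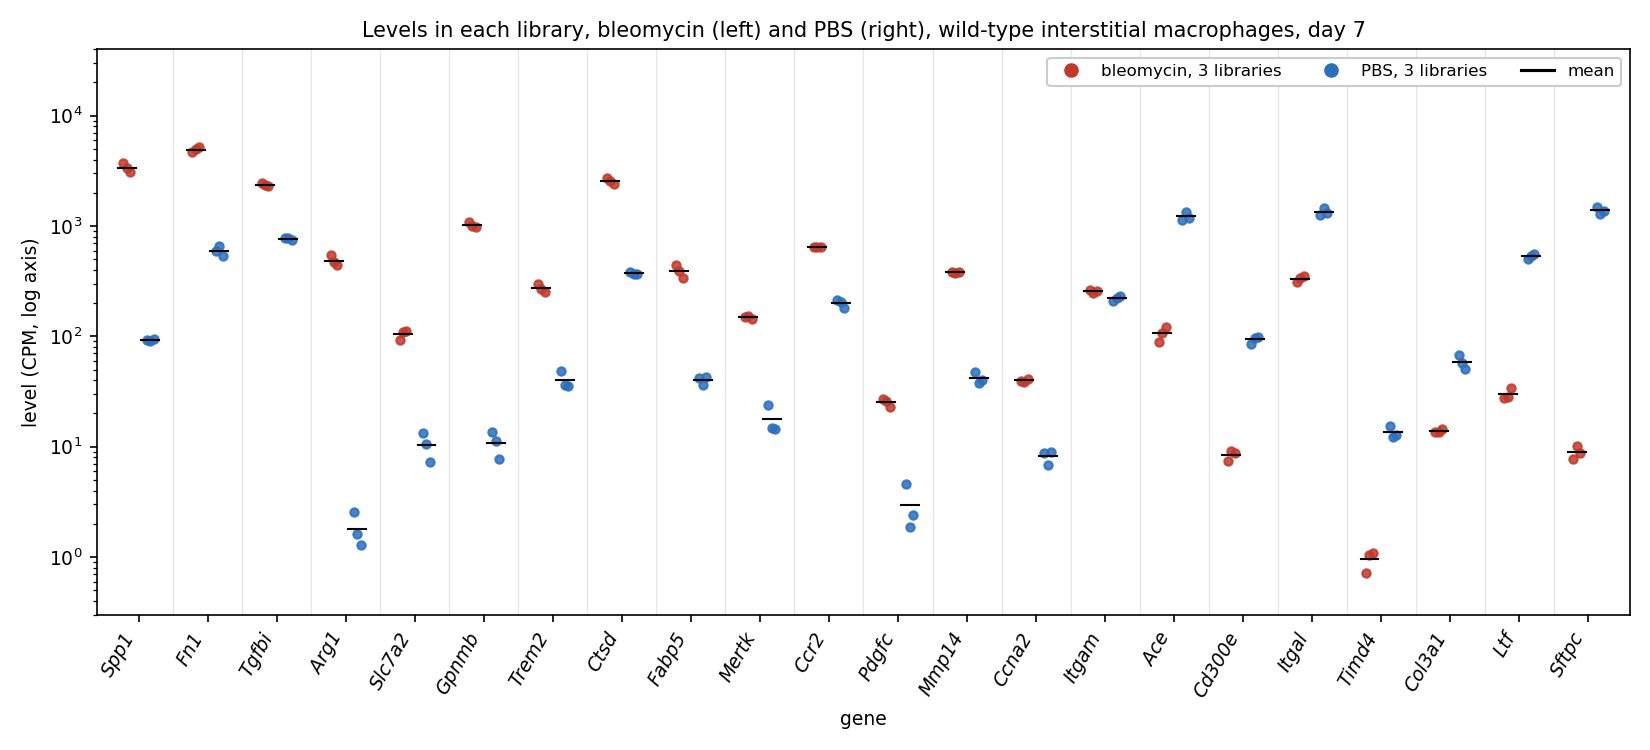
Level (CPM, log axis) of 22 genes in each library, bleomycin on the left of each pair in red and PBS on the right in blue, with the mean as a black line. The libraries of a group lie close together, and the groups overlap for none of the 22, as for 73.1% of all tested genes. The difference runs from Arg1, at 487 CPM after bleomycin and 1.81 CPM after PBS, to Sftpc, at 8.89 CPM after bleomycin and 1385 CPM after PBS. Itgam differed by 1.16-fold.

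The genes of lipid-associated macrophages had the largest median of the 41 pathway lists, which were chosen with earlier results of these data known. Of 21 tested, 18 rose and 3 fell, with a median log2 fold change of 1.57. Spp1 (ENSMUSG00000029304, chromosome 5, 104435118 to 104441050, plus strand, GRCm38) stood at 3698, 3386 and 3088 CPM in the bleomycin libraries, against 93.5, 90.0 and 95.2 CPM in the PBS libraries (log2 fold change 5.19 ± 0.068 SE, adjusted p = 3.0e-23). Gpnmb, a lysosomal glycoprotein, stood at 1087, 1009 and 975 CPM in the bleomycin libraries, against 13.6, 11.2 and 7.74 CPM in the PBS libraries (log2 fold change 6.56 ± 0.161 SE, adjusted p = 3.3e-08). Trem2, a lipid-sensing receptor, stood at 297, 271 and 252 CPM in the bleomycin libraries, against 48.4, 36.0 and 35.2 CPM in the PBS libraries (log2 fold change 2.78 ± 0.127 SE, adjusted p = 3.0e-07). The gap between the groups was wide in each case. For Spp1 and Trem2 bleomycin library 1 was the highest and library 3 the lowest, a range within the group far smaller than the gap to PBS. The lipid genes followed, with the fatty acid carrier Fabp5 at 394 ± 54.7 CPM after bleomycin and 40.4 ± 3.66 CPM after PBS and the lipase Lpl 6.88-fold higher. Apoe, apolipoprotein E, had the largest gain in CPM of the genes named by rule, with 9839 ± 756 CPM after bleomycin and 3320 ± 359 CPM after PBS. Lipa, the lysosomal acid lipase, rose 2.44-fold, and the lipid droplet coat gene Plin2 rose 1.52-fold. The 3 members that fell were the lipid receptor gene Cd36 (189 CPM after bleomycin, 519.8 CPM after PBS), the carrier Fabp4 (10.1 CPM after bleomycin, 32.4 CPM after PBS) and Tyrobp, the signal adaptor of TREM2 (645 CPM after bleomycin, 858 CPM after PBS).

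Lysosomal proteases rose with them. Of 18 cathepsin and cystatin genes 14 rose and 4 fell, with a median of 1.13. Ctsd, the aspartic protease cathepsin D, stood at 2724, 2575 and 2399 CPM in the bleomycin libraries, against 380.3, 365 and 371 CPM in the PBS libraries (log2 fold change 2.79 ± 0.054 SE, adjusted p = 1.2e-21). Ctsl, a cysteine protease, stood at 728, 660.4 and 607 CPM in the bleomycin libraries, against 97.2, 87.0 and 91.5 CPM in the PBS libraries, and Ctsk, the collagen-degrading cathepsin of osteoclasts, at 88.0 ± 2.35 CPM after bleomycin and 14.7 ± 3.62 CPM after PBS. The groups did not overlap for any of these genes, as for 73.1% of all tested genes. Ctss and Ctsb were among the largest gains in CPM, with Ctss 4.16-fold and Ctsb 2.33-fold higher. Lgmn, legumain, rose 2.93-fold. The cytosolic inhibitor Cstb rose 2.20-fold, and the secreted inhibitor Cst3 fell 1.09-fold. The small fall of Cst3 was not past the test in the fit of all libraries, with total counts, with no filter, or without any one library except PBS library 2 (adjusted p = 0.0575 to 0.227). Ctse, Ctsf and Napsa fell 1.67-fold, 2.59-fold and 1.42-fold. Napsa, a surfactant-processing protease of type 2 cells, stood at 214 CPM after bleomycin and 304 CPM after PBS. The type 2 marker Sftpc fell 155-fold in the same libraries.

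The V-ATPase, the pump that acidifies lysosomes, has a cytosolic V1 sector that splits ATP and a membrane V0 sector that passes protons. Of 18 subunit and accessory genes tested 15 rose and 1 fell, with a median of 0.56. In the V1 sector 7 of 8 rose, for example Atp6v1a, the catalytic subunit, at 272, 265 and 268 CPM in the bleomycin libraries, against 146, 132 and 129 CPM in the PBS libraries (log2 fold change 0.98 ± 0.055 SE, adjusted p = 1.6e-13). In the V0 sector 6 of 8 rose. Atp6v0d2, an isoform of osteoclasts and macrophages, stood at 91.1, 83.1 and 85.3 CPM in the bleomycin libraries, against 12.1, 10.48 and 7.60 CPM in the PBS libraries (log2 fold change 3.10 ± 0.108 SE, adjusted p = 3.7e-14), while its widely expressed partner isoform Atp6v0d1 was not past the test (211 CPM after bleomycin, 202 CPM after PBS). The single fall was Atp6v0c, the proton-binding ring subunit (33.9 CPM after bleomycin, 53.6 CPM after PBS), which has a processed copy in the annotation that can split its reads.

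Promoters of 2 of these genes are shown because the hexamer CACGTG, an E-box that reads the same on both strands and forms the core of the site of the MITF/TFE family, lies in them. The letters are the 250 bases before the RefSeq start on GRCm38.p6, in the direction of the gene, with CACGTG in capitals. Atp6v1a is at chr16:44139260-44139509 (minus strand) with the hexamer starting 131 bases before the start, and Ctsd at chr7:142387828-142388077 (minus strand) with hexamers starting 245 and 98 bases before it.
Atp6v1a: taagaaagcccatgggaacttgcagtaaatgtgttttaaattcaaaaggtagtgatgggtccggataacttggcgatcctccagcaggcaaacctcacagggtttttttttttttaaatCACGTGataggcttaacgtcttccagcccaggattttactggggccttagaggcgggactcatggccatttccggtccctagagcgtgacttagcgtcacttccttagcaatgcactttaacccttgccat
Ctsd: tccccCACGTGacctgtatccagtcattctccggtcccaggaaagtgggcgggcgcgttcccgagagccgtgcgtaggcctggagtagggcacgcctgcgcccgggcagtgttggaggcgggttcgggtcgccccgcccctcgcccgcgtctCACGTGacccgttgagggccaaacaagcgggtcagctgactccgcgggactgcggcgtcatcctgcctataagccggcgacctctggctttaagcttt
The hexamer was present in 4 of 17 promoters of the pump genes (23.5%), in 5 of 15 of the cathepsin and cystatin genes (33.3%) and in 3 of 21 of the lipid-associated genes (14.3%). In all 32851 promoters of the table the share was 7.2%. Of the pump genes 13 were matched in the table, of the cathepsin and cystatin genes 13, and of the lipid-associated genes 17, some with several promoters. A match is a description of the letters and no evidence of binding.

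Of 29 matrix genes 10 rose and 15 fell. Among the 10 structural genes only Fn1, fibronectin, rose, at 4660, 4970 and 5155 CPM in the bleomycin libraries, against 589, 662 and 532 CPM in the PBS libraries (log2 fold change 3.05 ± 0.072 SE, adjusted p = 4.1e-15). The other 9, collagens, decorin and biglycan, fell. Col3a1, a fibril collagen of fibroblasts, stood at 13.5, 13.7 and 14.6 CPM in the bleomycin libraries, against 68.2, 57.3 and 50.8 CPM in the PBS libraries, and the summed fibroblast markers, of which it is one, were lower after bleomycin in the same libraries. Of 10 matricellular genes, which encode matrix-bound signals rather than scaffold, 7 rose and 3 fell. Ecm1 stood at 407, 411 and 402 CPM in the bleomycin libraries, against 32.9, 29.1 and 29.1 CPM in the PBS libraries (log2 fold change 3.74 ± 0.061 SE, adjusted p = 6.6e-23), and Lgals1, galectin-1, at 479, 428 and 396 CPM in the bleomycin libraries, against 68.2, 52.1 and 66.9 CPM in the PBS libraries. Tgfbi, a TGF-beta-induced adhesion protein, stood at 2440, 2352 and 2321 CPM in the bleomycin libraries, against 776, 786 and 749 CPM in the PBS libraries. All 3 separated the groups without overlap, as did 73.1% of all tested genes. Thbs1, thrombospondin-1, an activator of latent TGF-beta, fell 1.46-fold (4874 CPM after bleomycin, 7111 CPM after PBS), with an adjusted p of 0.0724 in the fit of all libraries. Tgm2, the tissue transglutaminase that crosslinks matrix, fell 2.55-fold (859 CPM after bleomycin, 2192 CPM after PBS).

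**Figure D4:**
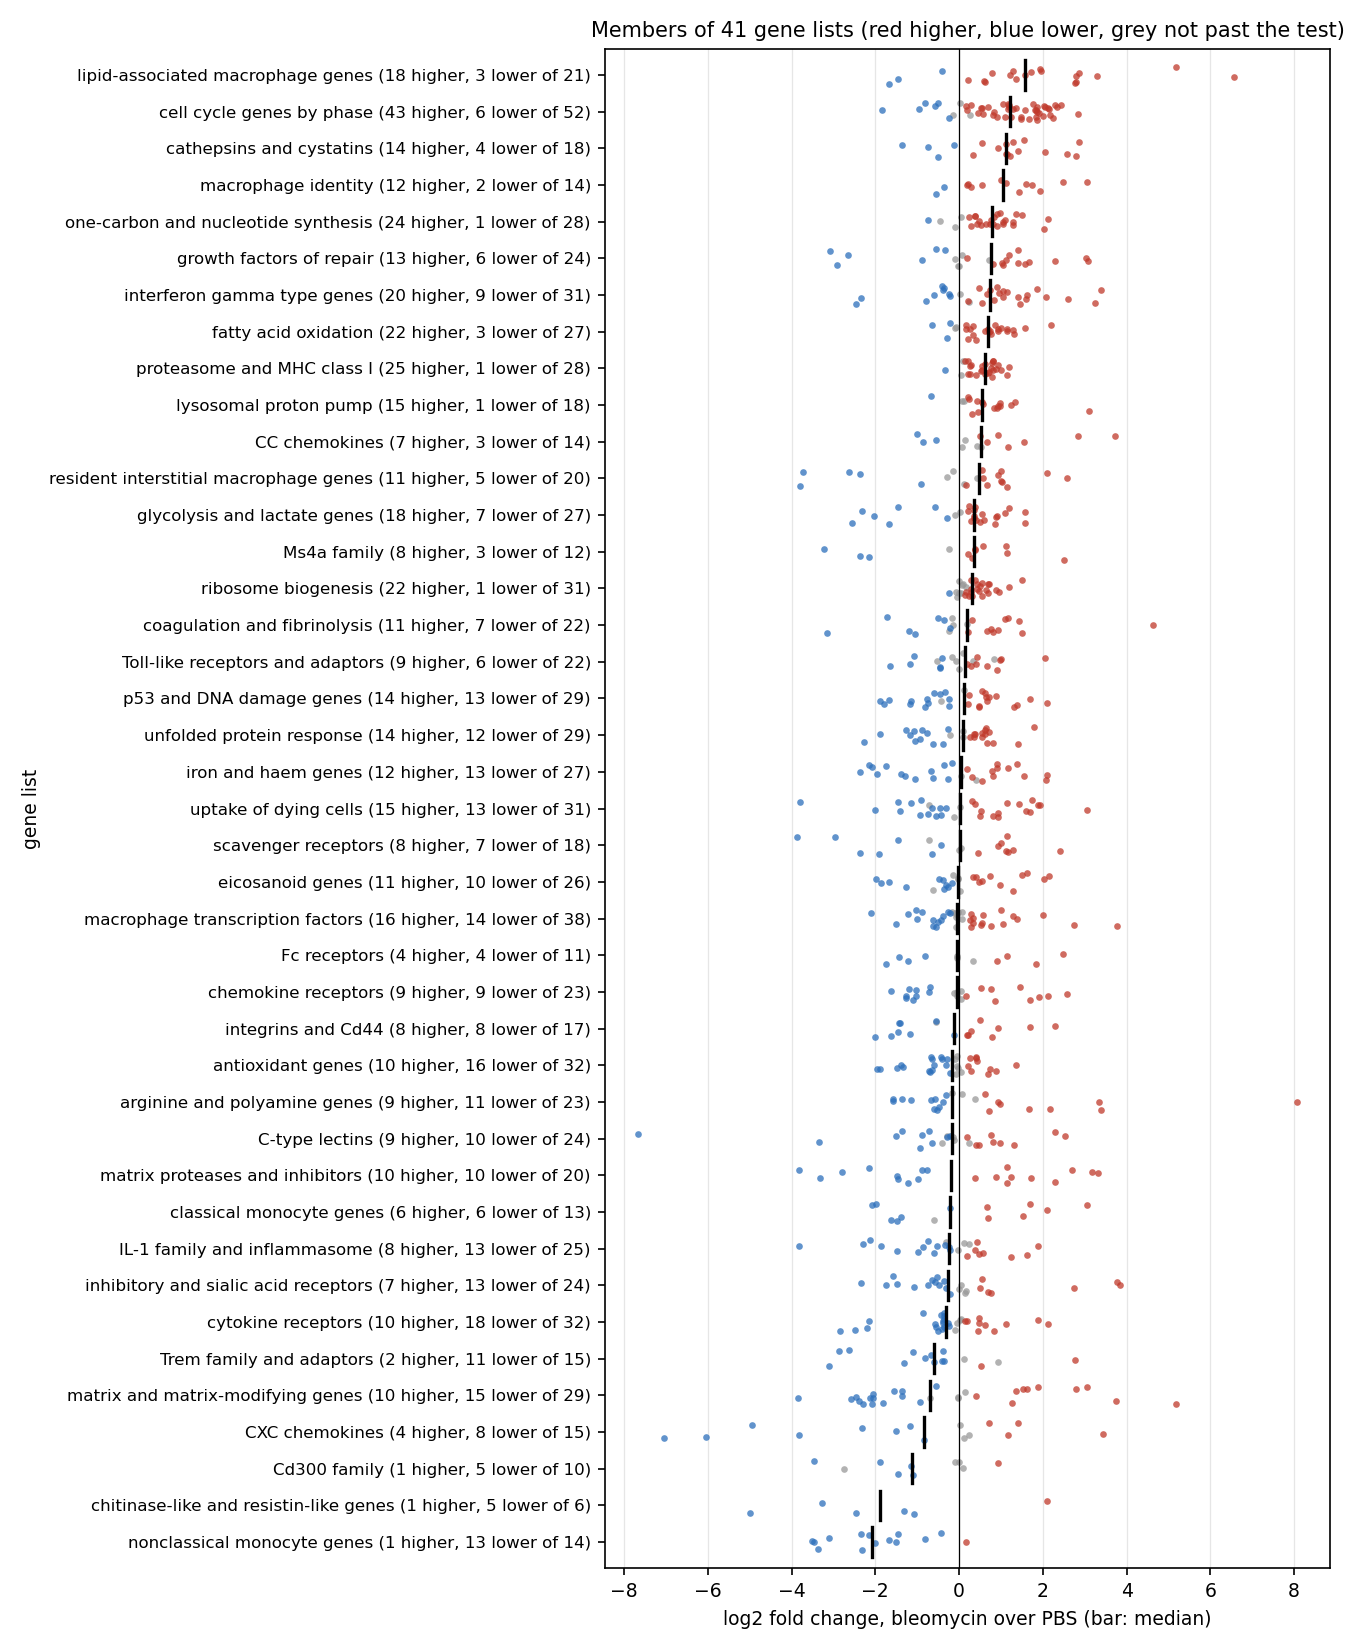
Log2 fold change, bleomycin over PBS, of each tested member of 41 gene lists, ordered by median (black bar), with members called higher in red, lower in blue and not past the test in grey. Lipid-associated macrophage genes (median 1.57) and cell cycle genes (median 1.23) stand at the top and nonclassical monocyte genes (median -2.08) at the bottom. Cxcl5 and Cd209f, at -7.03 and -7.66, had no count after bleomycin, so their fitted positions depend on the prior count.

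Of 20 proteases of the matrix and their inhibitors 10 rose and 10 fell. Mmp14, a membrane-bound collagenase and activator of other proteases, stood at 384, 376 and 386 CPM in the bleomycin libraries, against 47.9, 37.8 and 40.6 CPM in the PBS libraries (log2 fold change 3.18 ± 0.069 SE, adjusted p = 1.1e-19). Mmp19 rose 4.92-fold and Mmp12, the macrophage elastase, 3.31-fold. The sheddases Adam9, Adam10 and Adam15 rose 2.35-fold, 2.19-fold and 2.20-fold. Mmp8 and Mmp9, both stored in neutrophil granules, fell 2.34-fold and 2.73-fold alongside the neutrophil markers, a list that includes Mmp8. The collagenase gene Mmp13 fell 4.42-fold. Among inhibitors Timp1 averaged 12.6 ± 0.960 CPM after bleomycin and 1.94 ± 0.357 CPM after PBS. Timp3, a matrix-bound inhibitor, stood at 1.75, 1.94 and 1.27 CPM in the bleomycin libraries, against 26.9, 23.2 and 20.6 CPM in the PBS libraries. They thus moved in opposite directions, both without overlap, as in 73.1% of all tested genes. Timp2 rose 1.84-fold.

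Of 24 growth factors of repair 13 rose and 6 fell, with a median of 0.76. Pdgfc, a ligand that stimulates fibroblasts, averaged 25.2 ± 2.20 CPM after bleomycin and 2.97 ± 1.45 CPM after PBS (log2 fold change 3.09 ± 0.211 SE, adjusted p = 2.3e-08). Pdgfa rose 2.29-fold, while Pdgfb was not past the test (46.0 CPM after bleomycin, 47.0 CPM after PBS). Grn, progranulin, a lysosomal and secreted protein, stood at 1338, 1305 and 1291 CPM in the bleomycin libraries, against 279.8, 269 and 252 CPM in the PBS libraries (log2 fold change 2.30 ± 0.052 SE, adjusted p = 1.9e-20). Osm, oncostatin M, stood at 605, 583 and 552 CPM in the bleomycin libraries, against 173, 184 and 191 CPM in the PBS libraries (log2 fold change 1.67 ± 0.054 SE, adjusted p = 8.3e-18). The EGF family member Areg rose 2.65-fold, Hgf, a growth factor for epithelium, 2.08-fold, and the TGF-beta family members Gdf3, Inhba and Gdf15 8.23-fold, 2.96-fold and 2.17-fold. Tgfb1 itself fell 1.26-fold (399 CPM after bleomycin, 502 CPM after PBS), and Vegfa was not past the test (258 CPM after bleomycin, 274 CPM after PBS) but was lower with upper-quartile factors (adjusted p = 0.00616). Csf1, the ligand of Csf1r, fell 1.46-fold.

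Of 16 integrin genes and Cd44, 17 in all, 8 rose and 8 fell. Itga6, part of a laminin receptor, stood at 141, 144 and 145 CPM in the bleomycin libraries, against 30.2, 33.7 and 23.3 CPM in the PBS libraries (log2 fold change 2.29 ± 0.095 SE, adjusted p = 2.2e-11), and Itgb5, a partner of the alpha v chain in binding osteopontin and dying cells, rose 3.23-fold. Itgav rose 1.42-fold, whereas Itgb3, another partner, fell 2.64-fold. Itga4 fell 2.74-fold, and Cd44, the hyaluronan receptor that also binds osteopontin, fell 2.25-fold (939.6 CPM after bleomycin, 2112 CPM after PBS). In coagulation and fibrinolysis 11 of 22 tested genes rose and 7 fell. F7, coagulation factor VII, stood at 133, 129 and 124 CPM in the bleomycin libraries, against 7.22, 3.87 and 4.44 CPM in the PBS libraries (log2 fold change 4.64 ± 0.135 SE, adjusted p = 5.9e-12), F10 rose 2.15-fold, and F5 stood at 11.9, 10.4 and 14.0 CPM in the bleomycin libraries, against 101, 122 and 101 CPM in the PBS libraries (log2 fold change -3.16 ± 0.101 SE, adjusted p = 1.6e-14). Factor VII and factor V messages thus lay on opposite sides. Tissue factor, F3, was low and fell 2.06-fold (3.99 CPM after bleomycin, 8.23 CPM after PBS). The plasminogen activator gene Plau rose 2.69-fold.

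Arg1, arginase 1, which turns arginine into ornithine and urea, had the largest increase of the genes named by rule. It stood at 544, 473 and 443 CPM in the bleomycin libraries, against 2.54, 1.62 and 1.28 CPM in the PBS libraries (log2 fold change 8.06 ± 0.145 SE, adjusted p = 2.6e-13). Slc7a2, an arginine transporter, stood at 92.8, 110.2 and 113 CPM in the bleomycin libraries, against 13.3, 10.54 and 7.33 CPM in the PBS libraries (log2 fold change 3.34 ± 0.184 SE, adjusted p = 3.3e-06). Both genes for making arginine anew, Ass1 and Asl, rose 1.96-fold and 1.54-fold. Nos2, which turns arginine into nitric oxide, also rose but stayed at a low level (4.22 CPM after bleomycin, 0.391 CPM after PBS). The mitochondrial isoform Arg2 fell 2.97-fold, and the other transporter, Slc7a1, fell 2.23-fold. Downstream of ornithine, 8 of 11 polyamine genes fell and 2 rose, Srm (spermidine synthase, 3.18-fold) and Paox (4.48-fold). Odc1, which makes putrescine from ornithine, fell 1.23-fold (373 CPM after bleomycin, 459.6 CPM after PBS), and Smox, spermine oxidase, fell 2.57-fold. Of 5 proline-pathway genes tested 2 rose and 1 fell.

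**Figure D5:**
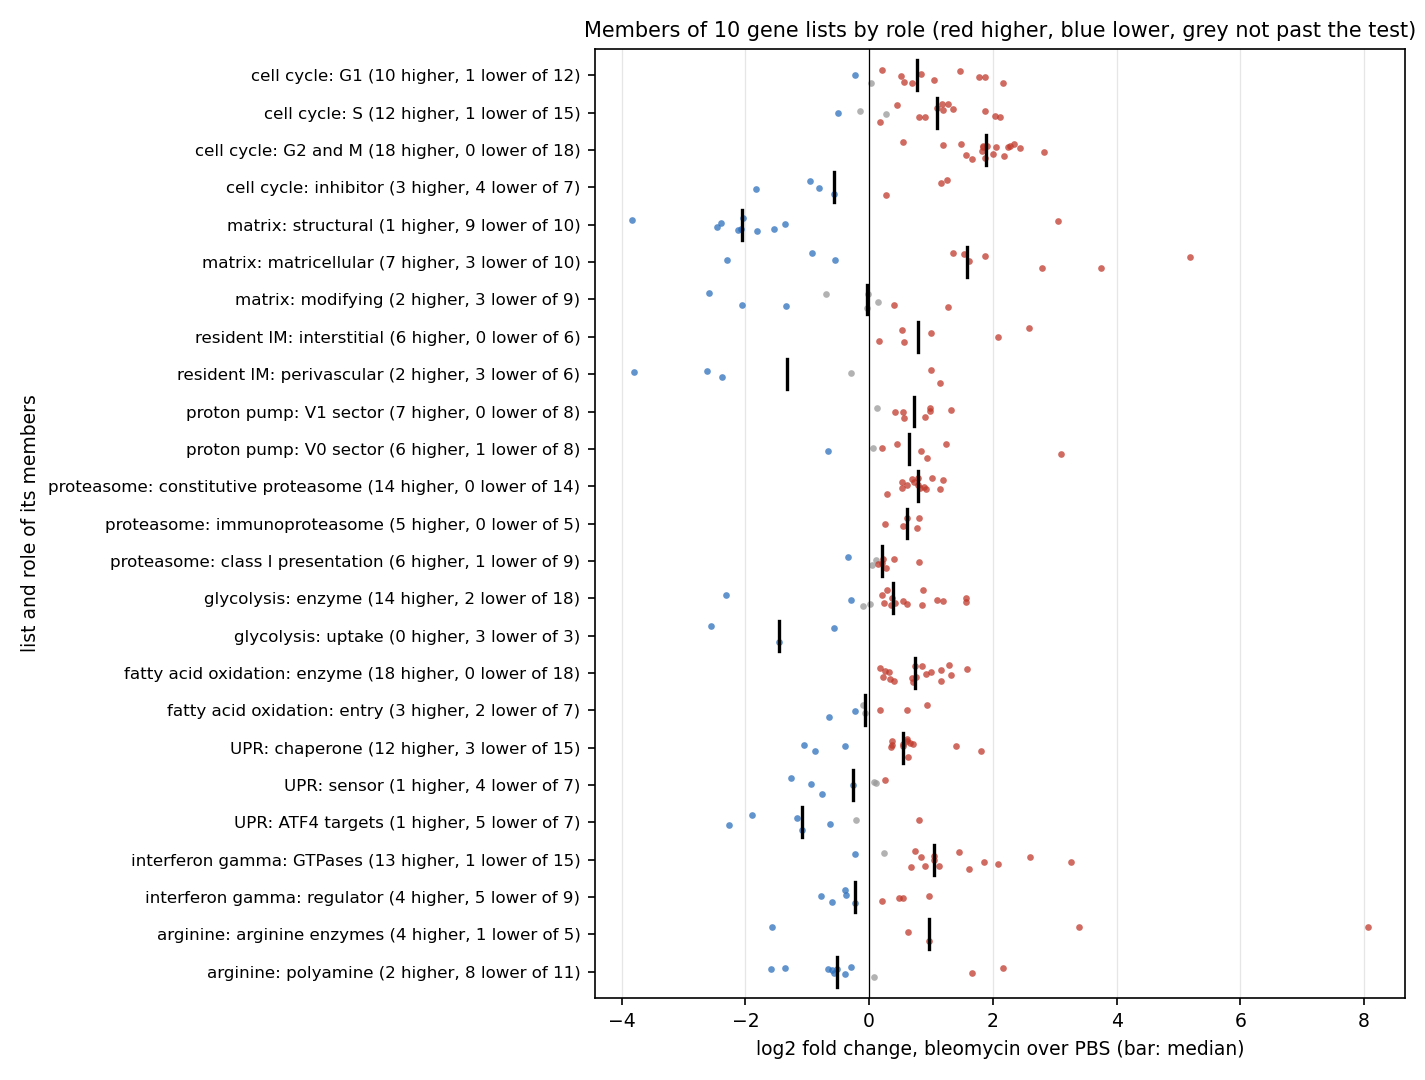
Log2 fold change, bleomycin over PBS, of the members of 10 lists split by what they do, with the median as a black bar and members called higher in red, lower in blue and not past the test in grey. Within the matrix list 7 of 10 matricellular and 1 of 10 structural genes were higher, and within the unfolded protein response (UPR) 12 of 15 chaperones and 1 of 7 ATF4 targets were higher.

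Cell cycle genes rose in G1, S, and G2 and mitosis alike. Of 52 tested 43 rose and 6 fell, against 35.6% and 34.5% of all tested genes, with a median of 1.23. The genes of G2 and mitosis all rose, 18 of 18, with a median of 1.89. Ccnb1, cyclin B1, averaged 15.9 ± 1.36 CPM after bleomycin and 2.22 ± 0.564 CPM after PBS (log2 fold change 2.83 ± 0.172 SE, adjusted p = 8.4e-13). Top2a, the topoisomerase that untangles replicated DNA, stood at 117, 114 and 126 CPM in the bleomycin libraries, against 39.2, 36.5 and 37.1 CPM in the PBS libraries (log2 fold change 1.66 ± 0.064 SE, adjusted p = 1.6e-16). Mki67, the proliferation marker Ki-67, averaged 170.3 ± 15.9 CPM after bleomycin and 74.8 ± 5.70 CPM after PBS (log2 fold change 1.19 ± 0.070 SE, adjusted p = 5.3e-12). The groups did not overlap for any of the 3, as for 73.1% of all tested genes. Of 15 S phase genes 12 rose, 1 fell (Cdt1, 1.42-fold) and 2 were not past the test, with a median of 1.09. Rrm2, the ribonucleotide reductase subunit, rose 4.36-fold, the helicase subunits Mcm2 to Mcm7 rose 1.75-fold (Mcm4) to 2.56-fold (Mcm6), and Pcna rose 1.12-fold (adjusted p = 0.111 with upper-quartile factors). Of 12 G1 genes 10 rose and 1 fell (Ccnd3). Of 7 inhibitor genes tested 3 rose and 4 fell, with Cdkn1b (p27) 1.95-fold and Cdkn1c (p57) 3.55-fold lower. Bulk levels do not say what share of cells was dividing, and CD11b+ cells other than macrophages can divide.

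The Top2a promoter lies at chr11:99024190-99024439 (minus strand, RefSeq, GRCm38.p6). It was chosen by smallest p among members called higher whose promoters carry both elements known from cell cycle promoters. Capitals mark CCAAT and TTTGAA, or their reverse complements ATTGG and TTCAAA. It held 6 CCAAT boxes and 2 TTTGAA elements, with no base shared between them.
Top2a: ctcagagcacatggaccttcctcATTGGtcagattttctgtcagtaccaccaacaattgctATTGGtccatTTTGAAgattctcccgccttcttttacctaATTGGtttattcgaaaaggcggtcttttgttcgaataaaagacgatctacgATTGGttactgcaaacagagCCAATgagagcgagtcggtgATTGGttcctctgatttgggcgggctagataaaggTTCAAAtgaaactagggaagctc
Over the list, CCAAT on either strand was present in 34 of 48 promoters (70.8%) and in 37.4% of all promoters. TTTGAA was present in 16 of 48 (33.3%) and in 17.9% of all. Both were present in 14 of 48 (29.2%) and in 7.0% of all. Of the list's genes 43 were matched.

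Genes of nucleotide synthesis, ribosome assembly and protein breakdown rose as well. Of 28 one-carbon and nucleotide synthesis genes tested 24 rose and 1 fell (Shmt1), with a median of 0.79. Atic, an enzyme of purine synthesis, stood at 65.5, 68.9 and 67.3 CPM in the bleomycin libraries, against 23.6, 26.3 and 21.4 CPM in the PBS libraries, and Gart of the same pathway at 59.4, 52.3 and 52.2 CPM in the bleomycin libraries, against 22.7, 19.8 and 21.3 CPM in the PBS libraries. Cad, which starts pyrimidine synthesis, rose 2.08-fold. The groups did not overlap for any of them, as for 73.1% of all tested genes. Of 31 ribosome biogenesis genes 22 rose and 1 fell (Nop56), mostly by little, with a median of 0.30. Wdr12 (2.82-fold) and Nhp2 (2.27-fold) rose the most. The 14 constitutive proteasome subunits all rose, from 1.23-fold for Psma7 to 2.29-fold for Psmb6, and so did the 5 immunoproteasome genes. In class I presentation 6 of 9 rose, while H2-D1 fell 1.26-fold and the other 2 were not past the test. H2-D1 and H2-K1 are close relatives whose reads can be shared, and the call of H2-K1 was lost with upper-quartile factors (adjusted p = 0.204) or without PBS library 2 (adjusted p = 0.0518).

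Bleomycin breaks DNA, and genes of the p53 and damage response were listed for that reason. Of 29 tested 14 rose and 13 fell, against 35.6% and 34.5% of all tested genes, with a median of 0.13. Zmat3, a p53 target, averaged 19.98 ± 0.670 CPM after bleomycin and 4.68 ± 1.32 CPM after PBS (log2 fold change 2.099 ± 0.152 SE, adjusted p = 3.7e-11). Cdkn1a (p21) rose 1.57-fold, Ccng1 1.59-fold, Bax 1.55-fold, and the damage kinase gene Chek2 3.22-fold. Other targets fell, with Bbc3 (PUMA) 3.46-fold, Gadd45a 3.72-fold and Fas 2.20-fold lower. Mdm2, which p53 induces and which degrades it, fell 1.18-fold. Members that rose and members that fell were thus nearly equal in number.

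In metabolism, fatty acid oxidation and glycolysis rose mainly in their enzymes. All 18 enzymes of fatty acid oxidation rose, with a median of 0.75. Hadh, a dehydrogenase of the cycle, averaged 36.2 ± 2.90 CPM after bleomycin and 14.8 ± 2.72 CPM after PBS (log2 fold change 1.29 ± 0.111 SE, adjusted p = 1.6e-09), and Acadl, for long chains, rose 1.997-fold. Of the 7 entry genes tested 3 rose and 2 fell, with Cpt1a, the gate into mitochondria, 1.53-fold higher and the carrier Slc25a20 1.57-fold lower. The coactivator gene Ppargc1b rose 4.601-fold. Of 18 glycolytic enzymes and their regulators 14 rose and 2 fell. Pgam1 stood at 244, 241 and 229.5 CPM in the bleomycin libraries, against 74.0, 86.6 and 80.9 CPM in the PBS libraries (log2 fold change 1.56 ± 0.059 SE, adjusted p = 1.3e-16), Hk2 rose 2.15-fold, Eno1 1.84-fold and Ldha 1.87-fold. Gapdh held few counts (34.9 CPM after bleomycin, 34.3 CPM after PBS), and its many processed copies make that level uncertain. The glucose transporters went the other way, and Slc2a3 stood at 62.0, 68.1 and 76.6 CPM in the bleomycin libraries, against 393, 410.3 and 414 CPM in the PBS libraries (log2 fold change -2.56 ± 0.064 SE, adjusted p = 6.2e-19). The lactate exporter Slc16a3 fell 3.19-fold.

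Of 29 genes of the unfolded protein response 14 rose and 12 fell. Of 15 chaperones and folding enzymes of the endoplasmic reticulum 12 rose, led by Pdia4 at 145, 132 and 140.0 CPM in the bleomycin libraries, against 40.2, 40.9 and 38.3 CPM in the PBS libraries (log2 fold change 1.80 ± 0.061 SE, adjusted p = 2.1e-17). Hspa5 (BiP), the main chaperone of that compartment, fell 1.31-fold (1151 CPM after bleomycin, 1511 CPM after PBS). Of 7 ATF4 targets 5 fell and 1 rose. Slc7a11, the cystine importer, stood at 151, 162 and 171 CPM in the bleomycin libraries, against 559, 635 and 597 CPM in the PBS libraries (log2 fold change -1.89 ± 0.058 SE, adjusted p = 4.2e-18). Atf4 and Ddit3 (CHOP) fell 1.92-fold and 2.40-fold. Of 32 antioxidant genes 10 rose and 16 fell, with Prdx1 2.57-fold higher and the glutathione enzyme genes Gss and Gsr 2.62-fold and 2.79-fold lower. Of 27 iron and haem genes tested 12 rose and 13 fell. Blvra, biliverdin reductase, rose 4.20-fold, while haem oxygenase Hmox1 fell 1.58-fold and ferroportin, Slc40a1, the iron exporter, fell 3.32-fold.

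Of 31 genes for the uptake of dying cells 15 rose and 13 fell, of 18 scavenger receptors 8 rose and 7 fell, and of 11 Fc receptor genes 4 rose and 4 fell. Over all tested genes 35.6% rose and 34.5% fell. Bridging proteins rose in 6 of 8, with Mfge8, which links phosphatidylserine to integrins, at 89.8, 88.9 and 90.7 CPM in the bleomycin libraries, against 27.3, 24.6 and 21.2 CPM in the PBS libraries (log2 fold change 1.88 ± 0.077 SE, adjusted p = 5.9e-16). Among receptors Axl averaged 774 ± 8.93 CPM after bleomycin and 203 ± 31.8 CPM after PBS (log2 fold change 1.93 ± 0.098 SE, adjusted p = 8.6e-08). The third kinase of its family, Tyro3, was low and fell 4.01-fold (0.743 CPM after bleomycin, 3.00 CPM after PBS). Of 9 machinery genes tested 2 rose and 5 fell. Among scavenger receptors Msr1 stood at 357, 337 and 328 CPM in the bleomycin libraries, against 68.1, 59.7 and 65.2 CPM in the PBS libraries (log2 fold change 2.40 ± 0.059 SE, adjusted p = 1.0e-19) and Lrp1 rose 1.90-fold. Fcgr2b, the inhibitory IgG receptor, rose 3.57-fold and Fcgr3 2.22-fold, whereas Fcgr4, of patrolling monocytes, fell 1.76-fold. Fcer2a, Fcrla and Fcrl1, all B cell genes, fell with the B cell markers.

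Of 24 C-type lectin genes tested 9 rose and 10 fell, near the 35.6% and 34.5% of all tested genes. Clec4n (Dectin-2), a receptor for fungal mannans, stood at 331, 323 and 295 CPM in the bleomycin libraries, against 55.5, 55.6 and 54.2 CPM in the PBS libraries (log2 fold change 2.52 ± 0.058 SE, adjusted p = 2.6e-20), and Clec4d and Clec4e, lectins of the same family, fell 2.55-fold and 1.86-fold. Cd209f had no count after bleomycin and 71 counts after PBS, at least 26.4-fold lower against a floor of 3 counts over the group. Of 15 Trem genes and adaptors 2 rose, Trem2 and Vav1, and 11 fell. Trem1, the activating receptor of neutrophils and monocytes, stood at 439, 454 and 463 CPM in the bleomycin libraries, against 884, 978 and 1029 CPM in the PBS libraries (log2 fold change -1.09 ± 0.054 SE, adjusted p = 2.1e-14), opposite to Trem2. Syk, the kinase below both, fell 2.48-fold (528 CPM after bleomycin, 1309 CPM after PBS). Of 10 Cd300 genes 1 rose, Cd300lf (1.91-fold), and 5 fell. Of 12 Ms4a genes 8 rose and 3 fell, with Ms4a6d at 307, 289 and 261 CPM in the bleomycin libraries, against 51.5, 49.5 and 48.8 CPM in the PBS libraries and Ms4a7 2.18-fold higher, and Ms4a1, a B cell gene, lower. Near-identical neighbours in these families can share reads.

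Of 24 inhibitory and sialic acid receptors 7 rose and 13 fell. Siglec1 (CD169), a sialic acid receptor of tissue macrophages, stood at 189.6, 192 and 190.3 CPM in the bleomycin libraries, against 27.1, 33.5 and 23.9 CPM in the PBS libraries (log2 fold change 2.75 ± 0.086 SE, adjusted p = 3.8e-14), the sole Siglec of 7 that rose. Cd200r1, the receptor for the restraining ligand CD200, stood at 56.5, 59.1 and 54.3 CPM in the bleomycin libraries, against 4.21, 3.99 and 3.70 CPM in the PBS libraries (log2 fold change 3.83 ± 0.102 SE, adjusted p = 2.8e-19). Its paralogue Cd200r4, with which it shares sequence, rose 13.7-fold. Lilrb4a fell 1.55-fold. Of 32 cytokine receptor genes 10 rose and 18 fell. Tnfrsf11a (RANK), the receptor of osteoclast formation, stood at 57.6, 52.6 and 57.4 CPM in the bleomycin libraries, against 14.9, 10.7 and 12.6 CPM in the PBS libraries (log2 fold change 2.13 ± 0.097 SE, adjusted p = 5.0e-15). Csf3r, the neutrophil growth factor receptor and itself a listed neutrophil marker, fell 4.44-fold. The TGF-beta receptor genes Tgfbr1 and Tgfbr2 moved apart, 1.79-fold higher and 1.29-fold lower, and Il10ra fell 1.82-fold. Il4ra rose 1.10-fold (adjusted p = 0.233 with upper-quartile factors).

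Of 14 CC chemokine ligand genes tested 7 rose and 3 fell. Ccl24 (eotaxin-2) stood at 37.0, 30.4 and 33.4 CPM in the bleomycin libraries, against 2.74, 2.74 and 2.15 CPM in the PBS libraries (log2 fold change 3.71 ± 0.134 SE, adjusted p = 6.2e-17), Ccl17 at 174, 158 and 148 CPM in the bleomycin libraries, against 22.4, 18.8 and 25.8 CPM in the PBS libraries (log2 fold change 2.84 ± 0.095 SE, adjusted p = 9.1e-13), and Ccl2, the ligand of CCR2, at 174 ± 22.5 CPM after bleomycin and 59.5 ± 12.9 CPM after PBS (log2 fold change 1.54 ± 0.191 SE, adjusted p = 0.00135). These 3 draw eosinophils, T cells and monocytes. Ccl3 and Ccl4, attractants of monocytes and lymphocytes, fell 1.99-fold and 1.82-fold. Of 15 CXC genes 4 rose and 8 fell. Cxcl16, also a scavenger receptor, rose 2.23-fold, and Cxcl2, a neutrophil attractant, fell 1.77-fold (1236 CPM after bleomycin, 2191 CPM after PBS). Cxcl13, a B cell attractant, averaged 1.64 ± 0.508 CPM after bleomycin and 49.95 ± 15.3 CPM after PBS (log2 fold change -4.94 ± 0.375 SE, adjusted p = 1.1e-04). Cxcl15 is made by lung epithelium and fell with its markers, and Cxcl5 had no count after bleomycin and 46 counts after PBS, at least 17.1-fold lower. Of 23 receptors 9 rose and 9 fell, with C3ar1 4.33-fold and Cmklr1 3.75-fold higher and the formyl peptide receptor genes Fpr1 and Fpr2 2.28-fold and 2.40-fold lower.

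Of 22 Toll-like receptor and adaptor genes tested 9 rose and 6 fell, near the 35.6% and 34.5% of all tested genes, with Tlr3 4.17-fold, Tlr4 2.003-fold and Tlr2 1.98-fold higher, and Tlr5 3.12-fold and Tlr6 2.103-fold lower. Of 25 IL-1 family and inflammasome genes 8 rose and 13 fell. Il1b stood at 2624, 2534 and 2441 CPM in the bleomycin libraries, against 1892, 1827 and 1962 CPM in the PBS libraries (log2 fold change 0.42 ± 0.048 SE, adjusted p = 4.4e-08) and Il1a rose 2.37-fold, while the decoy receptor Il1r2, abundant in neutrophils, stood at 297, 315 and 308 CPM in the bleomycin libraries, against 1264, 1316 and 1451 CPM in the PBS libraries (log2 fold change -2.13 ± 0.055 SE, adjusted p = 1.9e-19). The ligand message was thus slightly higher and the decoy message much lower. Pycard, the inflammasome adaptor ASC, rose 3.67-fold, while Nlrp3 fell 1.18-fold and Mefv (pyrin) fell 3.62-fold. Of 26 eicosanoid genes tested 11 rose and 10 fell, again near the shares of all tested genes. Tbxas1, thromboxane synthase, stood at 172, 170.1 and 163 CPM in the bleomycin libraries, against 44.3, 37.5 and 41.2 CPM in the PBS libraries (log2 fold change 2.04 ± 0.064 SE, adjusted p = 4.6e-18), Ltc4s rose 3.08-fold, Ptgs1 and Ptgs2 rose 1.96-fold and 1.32-fold, and Hpgd, which degrades prostaglandins, fell 3.61-fold.

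Of 31 interferon gamma type genes tested 20 rose and 9 fell, with a median of 0.74. The guanylate-binding and immunity-related GTPases, which attack vacuoles that hold microbes, rose in 13 of 15 tested genes, and Gbp9 fell 1.17-fold. Gbp7 stood at 49.7, 46.7 and 51.2 CPM in the bleomycin libraries, against 9.82, 12.3 and 12.7 CPM in the PBS libraries (log2 fold change 2.08 ± 0.095 SE, adjusted p = 4.7e-15), and Iigp1 averaged 8.73 ± 1.39 CPM after bleomycin and 1.43 ± 0.407 CPM after PBS. Many of these GTPases are near-identical copies, so that levels of single members are uncertain. Of 9 regulators 4 rose and 5 fell, with Ciita 1.95-fold higher and the receptor gene Ifngr1 1.31-fold and the kinase gene Jak2 1.72-fold lower. Cxcl9 rose 2.65-fold, and Cxcl10 was not past the test (68.0 CPM after bleomycin, 67.5 CPM after PBS). NK cells make interferon gamma, and of their 10 markers 9 were higher and 1 lower in the same libraries. A link between these markers and the GTPase genes was not tested.

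The Gbp7 promoter is shown as an example with the element that interferon regulatory factors bind, 2 copies of GAAA with any 2 bases between them, here on the opposite strand and so read as TTTC. It lies at chr3:142530086-142530335 (plus strand, RefSeq, GRCm38.p6), and the element, in capitals, starts 53 bases before the start. The gene was chosen for print after its values were seen.
Gbp7: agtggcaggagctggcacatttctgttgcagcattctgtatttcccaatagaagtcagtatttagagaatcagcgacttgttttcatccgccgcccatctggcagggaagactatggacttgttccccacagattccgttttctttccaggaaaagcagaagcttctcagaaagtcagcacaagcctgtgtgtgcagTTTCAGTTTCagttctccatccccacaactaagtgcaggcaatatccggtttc
The element was present on either strand in 12 of 26 promoters of the list (46.2%, from 22 matched genes) and in 3.4% of all promoters.

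The chitinase-like and resistin-like genes fell in 5 of 6 tested genes, and Chil3 rose. Chil3 and Retnla of this list are often read as signs of IL-4 type activation, and they moved apart. Retnlg, which fell 2.48-fold, is also a listed neutrophil marker. Over all tested genes 34.5% fell. Chil3 stood at 2043, 1847 and 1731 CPM in the bleomycin libraries, against 451, 421 and 436 CPM in the PBS libraries (log2 fold change 2.104 ± 0.058 SE, adjusted p = 1.5e-18), whereas Chil1 fell 9.73-fold and Retnla fell 2.11-fold. Among genes at 20 CPM or more, the largest increases outside the lists were in Slc36a2, an amino acid transporter, 40.9 CPM after bleomycin, 0.475 CPM after PBS, Syngr1, a vesicle protein, 52.4 CPM after bleomycin, 1.13 CPM after PBS, and Pdpn, podoplanin, at 179, 181 and 181 CPM in the bleomycin libraries, against 10.4, 9.67 and 10.02 CPM in the PBS libraries (log2 fold change 4.17 ± 0.069 SE, adjusted p = 6.6e-23). At the other end, Hc, complement C5, stood at 0.241, 0.332 and 0.181 CPM in the bleomycin libraries, against 74.1, 69.5 and 63.3 CPM in the PBS libraries (log2 fold change -8.04 ± 0.162 SE, adjusted p = 2.2e-21), Lgi3 at 0.191 CPM after bleomycin, 20.2 CPM after PBS, and Ces1d at 0.556 CPM after bleomycin, 51.3 CPM after PBS. These 3 are the largest decreases outside the lists among the genes named by rule. The type 2 markers Sftpc and Slc34a2 fell 155-fold and 161-fold in the same libraries, and which cells these 3 messages came from was not tested. Hdc, the enzyme that makes histamine, was named for its difference in CPM and stood at 224 CPM after bleomycin, 1448 CPM after PBS.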

How the data were processed

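Polyadenylated RNA of sorted cells was sequenced with 150 bp paired reads. The submitters' processing notes name FastQC 0.11.5 for read quality, Trimmomatic 0.38 for trimming, HISAT2 2.1.0 for alignment to GRCm38, SAMtools, and featureCounts 1.6.3 for counting. The annotation release and the strand setting are not given in the sources used here, so that reads of overlapping or antisense genes may not be told apart. Raw gene counts, neither scaled nor filtered, were deposited by the authors in a table of 49585 genes and 15 libraries that match samples. Another 3 columns matched no sample and were not used. A second deposited table of other groups was not used.

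The 6 libraries were fitted alone, with group as the only term, by the 2-sided quasi-likelihood F test of edgeR 4.0.16 (R 4.3.3) with its robust option. Library sizes were scaled by TMM, and genes of low count were dropped by filterByExpr. Every adjusted p is from this test, or its named alternative, with Benjamini-Hochberg adjustment over the genes tested (15645 here), called under 0.05. The SE is the absolute log2 fold change over the square root of F. The biological coefficient of variation was 0.0665. Exon lengths for levels per kb were taken from GENCODE M21, which holds 99.478% of the gene IDs.

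The members and lists were chosen with earlier results of these data known. There are 41 pathway lists and 16 marker lists (1037 symbols, all found), described by counts and medians with no set test. Genes are named by rule: Spp1, Siglecf and Itgam, then in each direction the 15 largest fold changes at 20 CPM or more without overlap and the 10 largest differences in CPM, without predicted genes, pseudogenes and receptor segments, then list members. Values per library were given for up to 6 members a list, smallest p first, and for members called against most of their list. Promoters are RefSeq on GRCm38.p6, the build of the counts. Those printed were chosen by smallest p among members called higher whose promoters held the elements, so after their values were seen. The shares of promoters with an element also count bases just past the start, which are not printed. Some list members are not reported here.

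On simulated data with 15337 genes, the test recovered 54.5% of genes changed 1.5-fold, 77.8% of those changed 2-fold and 96.9% of those changed 4-fold, and 13 of its 160 calls were false. The data themselves gave 10957 calls, many more than the simulation, so these rates need not hold for them. Depths were 15148420 to 17848593 counts per library. The floor of 3 counts covers counting error only, since the reads carry no molecular identifiers. Alternatives were DESeq2 1.42.0, other normalizations and filters, a replicate block, and leaving out each library.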

Additional observations from a re-analysis of the deposited data

How the results depend on the processing

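The counts of genes called differed by less than 1.5 times from those reported in each of 13 alternatives. Higher genes ran from 5016 (upper-quartile factors) to 5984 (no low-count filter), and lower genes from 5071 (total counts) to 5883 (upper-quartile factors). DESeq2 gave 5166 higher and 5413 lower. Leaving out 1 library at a time gave 5318 to 5590 higher and 5127 to 5405 lower. No gene was called in the opposite direction in any of the 13. Of 278 named genes tested, 257 kept their direction and their side of the threshold in all 13. A call was lost or gained for 14, each given beside its result. A direction turned for 7, none of which was called, and the cause was not tested. As log2 fold changes, upper-quartile factors gave -0.006 for Atp6v0d1, -0.064 for Cxcl10 and -0.056 for Gapdh, and size factors of the RLE kind gave -0.011 for Cxcl10 and -0.002 for Gapdh. Pdgfb was at 0.016 with total counts and 0.026 with no filter. Leaving out 1 library gave -0.05 to 0.148 for Cxcl10, -0.508 to 0.092 for Folr2, -0.412 to 0.273 for Gapdh, -0.097 to 0.091 for Pdgfb, -0.003 to 0.257 for Siglecf and -0.109 to 0.013 for Tfeb. Counts of list members differed by more than 1.5 times in 30 of 1482 comparisons, with at most 5 members called in each. List medians moved by more than the SD between the bleomycin libraries in 171 of 741 comparisons, by up to 0.157 log2 in a pathway list and 0.504 in a marker list.

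With the replicate number as a block, 5493 genes were higher and 5284 lower, and Gapdh stood at -0.033 on the log2 scale. The numbers did not pair the libraries. Deviations from the group means correlated at 0.014, -0.014 and -0.026 between libraries of the same number, across genes, and 1 library of the 6, PBS library 1, correlated best with its own number.

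With 3 libraries per group, small changes were often missed in simulated data, which held far fewer calls than these data. Levels of other cell types differed between the groups as well, and bulk counts do not say which cells a message came from.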
